A study of Homo sapiens with 6 samples.

Results

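The 6 genes TMEM156, TM4SF1, CUL4B, B4GALNT2, DDR2 and ANK2 were followed in RNA from Het1A, an established human oesophageal epithelial line that was immortalised with SV40 large T antigen. They are 6 of the 58735 genes in the deposited count table and were chosen by the shift of their read counts between the treated and the control libraries, 3 of them (TMEM156, TM4SF1, CUL4B) for higher and 3 (B4GALNT2, DDR2, ANK2) for lower counts after treatment. The difference between the groups that follows is therefore a description of how they were chosen, and it carries no test. For the 3 bile acid libraries, cells had met medium at pH 4.0 with 100 µM of mixed glycocholic, taurocholic, glycodeoxycholic, glycochenodeoxycholic and deoxycholic acid for 10 min on each of 5 days. In the 3 control libraries they had received the solvent, 0.1% DMSO, in medium that the labels do not call acidified, so acid and bile acids cannot be told apart. Every culture was kept at 1% serum, beginning 48 h ahead of the exposures, and RNA was taken 24 h after the last. The labels number the libraries as biological replicates 1 to 3 of each group, all from 1 line, without saying how the cultures were separated.

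Acid and bile acids reach the lower oesophagus in reflux disease. The 6 genes act in unrelated places. TM4SF1 and TMEM156 encode small proteins of the cell membrane, of which the first gathers with tetraspanins in patches that carry integrins and the second is hardly studied. CUL4B encodes the scaffold of a ubiquitin ligase of the CRL4 class, which holds the adaptor DDB1 at its head and the RING protein RBX1 at its tail. B4GALNT2 encodes the Golgi enzyme that finishes the Sda blood group sugar of the gut lining, DDR2 a receptor tyrosine kinase that is switched on by fibrillar collagen, and ANK2 ankyrin-B, which ties channels and transporters to the spectrin skeleton under the membrane.

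Total counts were 27789590, 27008714 and 28497721 in bile acid libraries 1 to 3 and 26218597, 21006677 and 21981806 in control libraries 1 to 3. Control library 2 stood apart from the rest, with 19101 genes detected against 24174 to 25190 in the bile acid libraries and 24300 and 25337 in the other controls, so the fold changes of the 6 genes are also given with libraries left out. Levels are given in CPM (counts scaled to a common library size, with TMM factors). The 12 genes listed as squamous epithelial summed to 255 to 318 CPM in bile acid libraries and 258 to 310 CPM in control libraries. Most of this came from the junction genes PERP and DSP and from EPCAM. Among the 12, KRT13 and KRT4 had 0 counts in every library and KRT5 lay at 0.0366 to 0.209 CPM in bile acid and 0 to 0.511 CPM in control libraries. TP63 reached 0.0731 CPM at most in bile acid libraries and was at 0 in control libraries. SOX2 reached 0.464 CPM at most in bile acid and 0.216 CPM in control libraries, and KRT6A 0.765 and 1.18 CPM. The simple epithelial keratins KRT7, KRT8, KRT18 and KRT19 summed to 1360 to 1470 CPM in bile acid libraries and 906 to 2360 CPM in control libraries. Control 2 was the highest library in each of these keratins and gave the upper end of the control range. KRT7, for example, measured 373, 904 and 335 CPM in controls 1 to 3. Epithelial genes were thus present, as labelled, while the squamous keratins KRT4, KRT5, KRT13 and KRT14, and TP63 and SOX2, were at or near 0. The 12 fibroblast or mesenchymal markers summed to 479 to 629 CPM in bile acid libraries and 353 to 532 CPM in control libraries, mostly from COL1A1, VIM and THY1, with COL3A1 at 0. The leukocyte genes PTPRC, CD3E and LYZ were at 0 in all libraries.

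Among 17743 genes tested with edgeR, 0 passed in either direction, 0% of those tested, with a lowest adjusted p of 0.911 and 588 genes at an unadjusted p under 0.05, and DESeq2 called 19 higher genes, 0.107%, and 0 lower ones. All 6 genes passed the filter on low counts, but B4GALNT2 did so through its control libraries alone. The groups stood apart, with the bile acid libraries higher, for 3 of the 3 genes picked as higher, where 5.29% of all tested genes did so. They stood apart with the bile acid libraries lower for 2 of the 3 picked as lower, B4GALNT2 and ANK2, where 4.89% of all tested genes did so, and for DDR2 the groups overlapped. These shares only restate the choice of the genes. Fewer cells with a transcript and less transcript per cell cannot be told apart in RNA from whole cultures.

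TMEM156 had the largest positive difference of the 6 genes. It (ENSG00000121895) lies on chromosome 4, 38966744 to 39032922 on the minus strand (GRCh38), where its 4 annotated transcripts start at 4 sites and its exons add up to 2562 bp. It had 200, 108 and 149 counts in bile acid libraries 1 to 3, against 26, 6 and 34 in control libraries 1 to 3, which is 7.13, 3.95 and 5.18 CPM against 0.934, 0.336 and 1.45 CPM. The lowest bile acid library thus stood 2.73-fold above the highest control, and control 2 was the lowest of all. The log2 fold change was 2.55 (SE 0.53, n = 3 per group), and 19 of the tested genes had a larger one. Without control 2 it was 2.20 and without control 3 it was 3.05, the ends of the range over the libraries left out in turn. The mean level was 5.42 ± 1.61 CPM in bile acid and 0.906 ± 0.557 CPM in control libraries (SD, n = 3). The spread of log2 CPM within groups, 0.74, was above that of 81.2% of genes tested, so the bile acid libraries were all above the controls while the size of the gap varied with the library.

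TM4SF1 (ENSG00000169908), on chromosome 3, 149369022 to 149377865, minus strand, had 579, 281 and 537 counts in bile acid libraries, against 174, 114 and 116 in control libraries. In CPM these were 20.6, 10.3 and 18.7 in bile acid libraries and 6.25, 6.38 and 4.94 in control libraries. Bile acid library 2 was the lowest of its group and 1.61-fold above the highest control, and the controls lay close together, control 2 included. The mean was 16.5 ± 5.51 CPM in bile acid and 5.86 ± 0.797 CPM in control libraries (SD, n = 3). The log2 fold change was 1.5 (SE 0.31), with 105 tested genes above it. The value was 1.76 without bile acid library 2, 1.31 without bile acid library 1 and 1.57 without control 2. Exons of the antisense gene TM4SF1-AS1 cover 2.4% of the exons of TM4SF1, and reads from both cannot be told apart there if counting ignored strand. TM4SF1-AS1 had 0, 0 and 2 counts in bile acid libraries and 0 in each control library. The exons of the other 5 genes overlap those of no other annotated gene.

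Since TMEM156 and TM4SF1 had the largest positive shifts and a single promoter each in the table of RefSeq promoters (GRCh38.p14), their 300 bases from 250 before to 50 after the start are shown 5′ to 3′. Capitals mark matches on either strand to the AP-1 motif TGANTCA, the TEAD motif GGAATG and the CAAT box CCAAT. The windows are chr4:39032360-39032659 and chr3:149377600-149377899, both on the minus strand.
TMEM156: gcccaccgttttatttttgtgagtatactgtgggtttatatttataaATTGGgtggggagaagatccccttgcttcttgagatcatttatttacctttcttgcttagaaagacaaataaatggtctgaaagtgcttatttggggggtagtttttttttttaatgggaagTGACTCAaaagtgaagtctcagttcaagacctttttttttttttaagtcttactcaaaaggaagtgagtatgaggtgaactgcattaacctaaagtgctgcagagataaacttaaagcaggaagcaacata
TM4SF1: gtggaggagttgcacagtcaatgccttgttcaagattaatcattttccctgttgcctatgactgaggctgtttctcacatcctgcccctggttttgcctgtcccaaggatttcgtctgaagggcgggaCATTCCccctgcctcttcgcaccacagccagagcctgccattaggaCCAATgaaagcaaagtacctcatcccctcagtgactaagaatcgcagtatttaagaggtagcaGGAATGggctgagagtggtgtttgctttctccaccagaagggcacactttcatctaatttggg
In TMEM156 the AP-1 match begins at −81 from the start, and 7.71% of 35116 promoter windows of the same length hold such a match. TM4SF1 holds TEAD matches at −122 and −13 from the start, on opposite strands, and 14% of windows hold at least 1. The first of them lies inside 2 overlapping matches to a loose form of the NF-κB motif, which 58.7% of windows contain. Each of the windows holds 1 CAAT box, which 34.6% of all windows contain. A cyclic AMP element (TGACGTNA, 3.01% of windows), an E-box (CACGTG, 7.26%) and a sterol element (TCACNCCAC, 1.13%) were also searched on both strands and have no match in either window. The other 4 genes have from 2 to 10 promoters in the table, 21 windows for the 6 genes in all. AP-1 was matched in 1 of the 3 windows of DDR2, at its start site, and in 1 of the 10 of ANK2, and in none of those of CUL4B or B4GALNT2. These are matches of letters, and nothing was measured about binding.

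**Figure D1:**
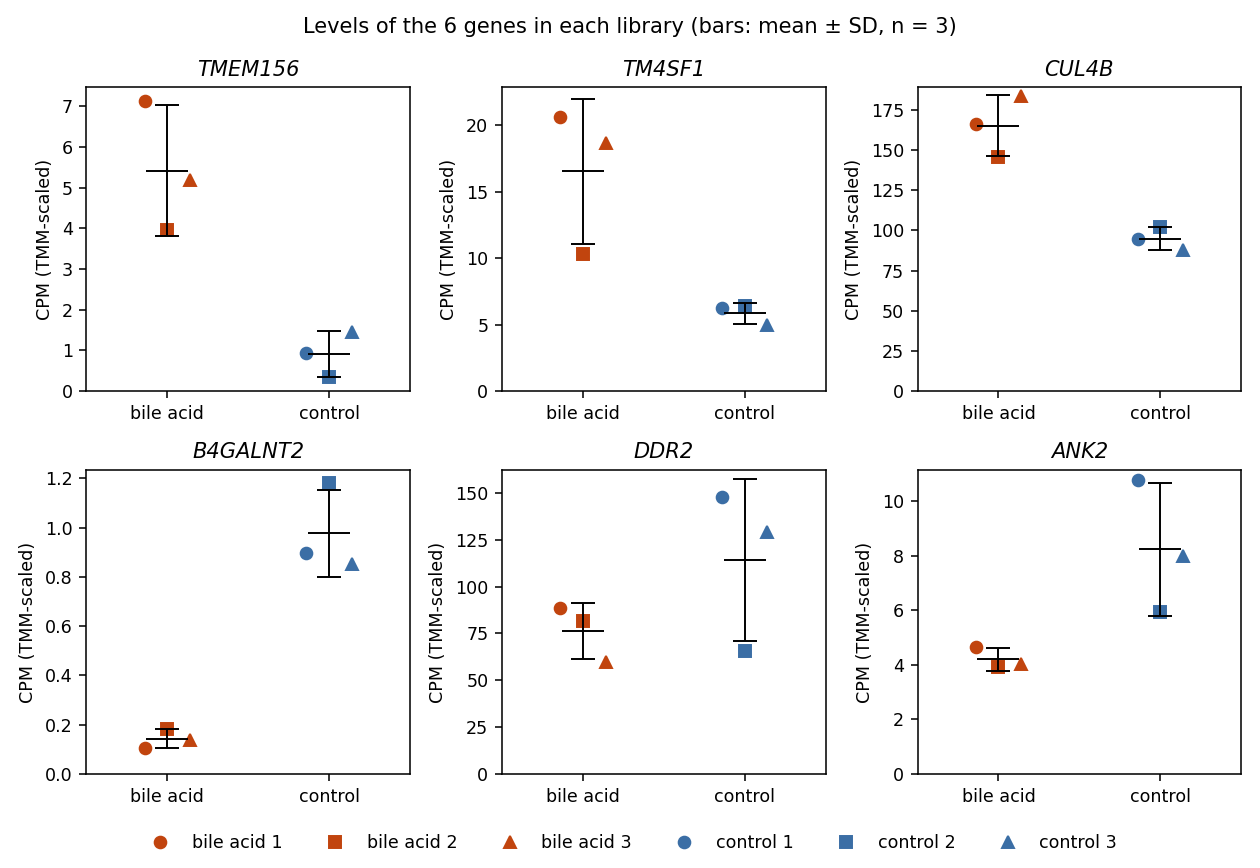
TMM-scaled CPM of each gene in the 3 bile acid libraries (left) and the 3 control libraries (right), with the symbol giving the replicate number and bars the mean ± SD. The groups are apart in 5 genes, and in DDR2 control 2 at 65.6 CPM falls among the bile acid libraries at 59.7 to 88.5 CPM.

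CUL4B had the highest mean level per length of the 6 in both groups, though DDR2 was above it in control 1, and CUL4B had the smallest spread within groups. CUL4B (ENSG00000158290) lies on the X chromosome, 120524609 to 120575794, minus strand, with 7 annotated transcripts. Its counts were 4662, 3983 and 5278 in bile acid libraries and 2639, 1824 and 2064 in control libraries. The levels were 166, 146 and 184 CPM in bile acid libraries against 94.8, 102 and 87.9 CPM in control libraries, so the lowest bile acid library stood 1.43-fold above the highest control. The log2 fold change was 0.80 (SE 0.18), from 0.72 to 0.89 over the libraries left out in turn. Its spread within groups, 0.14 on the log2 scale, was below that of all but 8.13% of genes tested, and 694 tested genes had a larger fold change.

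Its close relative CUL4A, which builds the same ligase, differed between the groups by less than their spread. CUL4A stood at 5.78 ± 0.483 FPKM in bile acid and 5.46 ± 0.630 FPKM in control libraries (fragments per kilobase of exon at a common library size; SD, n = 3). Its log2 fold change was 0.11 (SE 0.18). On the same per-length scale CUL4B stood at 20.0 ± 2.33 FPKM in bile acid and 11.7 ± 0.736 FPKM in control libraries. CUL4B thus made up 76.3%, 76.9% and 79.3% of the summed cullin 4 FPKM in bile acid libraries 1 to 3, against 69.3%, 66.7% and 68.6% in control libraries 1 to 3.

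The other listed genes of the ligase varied in sign. Of 40 further genes of CRL4 ligases, their substrate receptors and the NEDD8 and COP9 signalosome systems that switch them, all tested, 0 passed in edgeR in either direction, 18 had a positive and 22 a negative fold change, and the median log2 fold change was −0.05, beside −0.01 over all genes tested. The adaptor DDB1 measured 425, 345 and 442 CPM in bile acid libraries against 342, 315 and 322 CPM in control libraries, without overlap (log2 fold change 0.31, SE 0.19). The RING protein RBX1 measured 59.0, 81.7 and 72.0 CPM in bile acid libraries against 55.2, 204 and 64.1 CPM in control libraries, and its log2 fold change of −0.61 (SE 0.49) turned to 0.26 without control 2. COPS2, a signalosome subunit, had a log2 fold change of 0.49 (SE 0.23), GLMN, an inhibitor that binds RBX1, 0.51 (SE 0.26), and UBA3, part of the enzyme that activates NEDD8, 0.33 (SE 0.20). These 3 had the smallest p of the list, all 0.911 after adjustment in edgeR. With control 2 left out, COPS2 stood at 0.30, GLMN at 0.31 and UBA3 at 0.31. Of the 6 other cullins 0 passed, 5 had a positive value and the median was 0.19. Those with the smallest p were CUL1 at 0.21 (SE 0.19), CUL7 at 0.29 (SE 0.28) and CUL3 at 0.43 (SE 0.41). Without control 2 their log2 fold changes were 0.11, 0.06 and 0.07 in that order.

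B4GALNT2 had the lowest level and the widest gap of the 3 lower genes. It (ENSG00000167080) lies on chromosome 17, 49132460 to 49176840, plus strand, with exons of 8961 bp. It had 3, 5 and 4 counts in bile acid libraries and 25, 21 and 20 in control libraries, so bile acid library 1 was at the floor of 3 counts used here. Its 12 counts in all bile acid libraries against 66 in all controls give a ratio of 0.149 at equal depth. In CPM the values were 0.107, 0.183 and 0.139 in bile acid libraries and 0.899, 1.18 and 0.852 in control libraries. The lowest control stood 4.66-fold above the highest bile acid library. The log2 fold change was −2.73 (SE 0.56), from −2.92 to −2.56 over the libraries left out, and 3 tested genes had a lower one. Per length its mean lay at 0.0136 ± 0.00362 FPKM in bile acid and 0.0941 ± 0.0154 FPKM in control libraries (SD, n = 3), and over all libraries 0.949% of the protein-coding genes tested had a lower mean FPKM. The gap is thus between very low and still lower levels.

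The other enzymes of its family were far more abundant. B4GALNT4, which adds N-acetylgalactosamine to N-acetylglucosamine, stood at 11.6 ± 1.75 FPKM in bile acid and 10.2 ± 1.64 FPKM in control libraries, and B4GALNT1, the enzyme of the gangliosides GM2 and GD2, at 3.00 ± 0.249 FPKM in bile acid and 2.26 ± 0.448 FPKM in control libraries (SD, n = 3). All bile acid values of B4GALNT1 exceeded all control values (log2 fold change 0.43, SE 0.21). B4GALNT3 measured 2.46, 2.08 and 2.02 CPM in bile acid libraries against 2.77, 7.84 and 2.68 CPM in control libraries, and its log2 fold change of −1.01 (SE 0.48) was −0.31 without control 2. B4GALNT2 made up 0.0753% to 0.124% of the summed FPKM of these 4 genes in bile acid libraries and 0.587% to 0.912% in control libraries.

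Of the 33 other listed enzymes and transporters that make the sialylated and fucosylated chains on which the Sda sugar is built or with which it competes, 29 were tested and 0 passed in edgeR. Their median log2 fold change was 0.09, with 17 positive and 12 negative values. B4GALT5, a galactosyltransferase, measured 267, 196 and 236 CPM in bile acid libraries against 157, 127 and 188 CPM in control libraries (log2 fold change 0.57, SE 0.22), the smallest p of the list. The sialyltransferases ST3GAL1 and ST3GAL4 had log2 fold changes of 0.23 (SE 0.22) and 0.09 (SE 0.17). FUT3, the Lewis fucosyltransferase, stood at 0.299 ± 0.268 CPM in bile acid and 0.432 ± 0.229 CPM in control libraries (SD, n = 3).

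**Figure D2:**
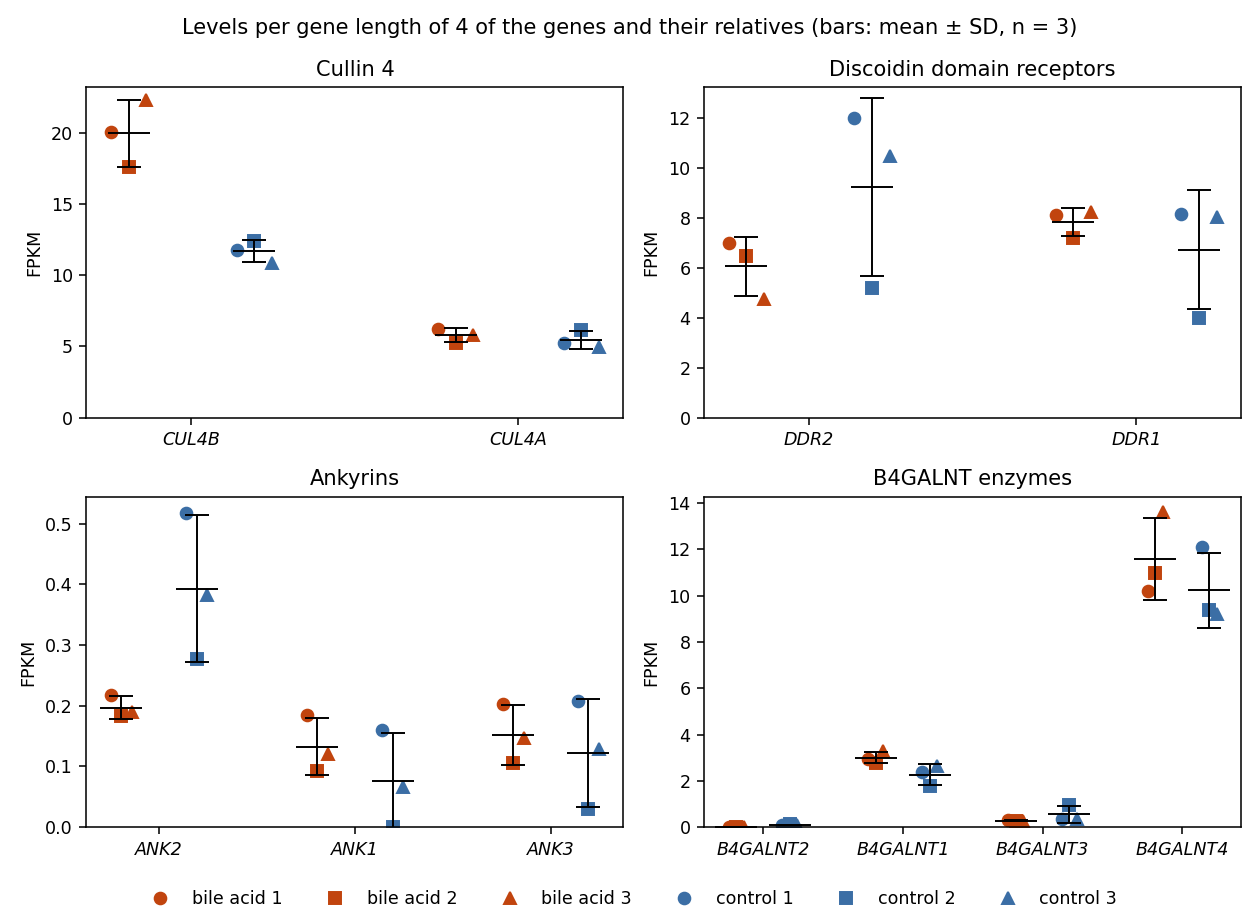
FPKM of CUL4B, DDR2, ANK2, B4GALNT2 and their relatives in each library, bile acid libraries to the left of control libraries for each gene, with bars for the mean ± SD (n = 3). CUL4B lies above CUL4A in all libraries, DDR2 lies below DDR1 in the bile acid libraries and above it in the control libraries, and B4GALNT2 is near 0 beside B4GALNT4.

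DDR2 had the smallest difference of the 6 and the only one in which the groups overlapped. It (ENSG00000162733) lies on chromosome 1, 162631373 to 162787400, plus strand, with 6 annotated transcripts and 10730 bp of exons. Its counts were 2482, 2227 and 1716 in bile acid libraries and 4105, 1172 and 3036 in control libraries. The levels were 88.5, 81.4 and 59.7 CPM in bile acid libraries against 148, 65.6 and 129 CPM in control libraries. Controls 1 and 3 lay above all bile acid libraries, and control 2 lay below 2 of them. The log2 fold change was −0.58 (SE 0.32), which was −0.85 without control 2 and −0.35 without control 1, and 1982 tested genes had a lower one.

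Its sister receptor DDR1, which epithelia use for collagen, stood at 8.11, 7.21 and 8.24 FPKM in bile acid libraries and 8.17, 3.98 and 8.05 FPKM in control libraries, so control 2 was low in it as well. DDR2 stood at 7.02, 6.46 and 4.75 FPKM in bile acid libraries and 12.0, 5.21 and 10.5 FPKM in control libraries. As a share of the summed FPKM of both receptors, DDR2 made up 46.4%, 47.3% and 36.6% in bile acid libraries against 59.6%, 56.7% and 56.6% in control libraries. DDR2 having been chosen for its lower counts, these shares are a description too.

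Of 27 other collagen receptors, fibrillar collagens and genes known downstream of DDR2, 20 were tested and 0 passed in edgeR, with 15 positive and 5 negative values and a median log2 fold change of 0.25. Over all genes tested 48.8% had a positive value and the median was −0.01. Whether the list differs from all genes was not tested. SNAI1, a repressor of epithelial genes that DDR2 stabilises as a protein, measured 5.74, 3.11 and 4.69 CPM in bile acid libraries against 2.8, 1.51 and 2.6 CPM in control libraries, without overlap (log2 fold change 0.96, SE 0.38). SHC1, an adaptor of receptor kinases, measured 308, 185 and 303 CPM in bile acid libraries against 183, 60.8 and 189 CPM in control libraries. Its groups thus overlapped, with control 2 the lowest library (log2 fold change 0.88, SE 0.44). The collagen receptor subunit ITGA10 had a log2 fold change of 0.70 (SE 0.42), which was 1.15 without control 1. COL1A1, a chain of the collagen that binds DDR2, ran from 92.9 to 231 CPM in bile acid libraries and from 42.7 to 192 CPM in control libraries (log2 fold change 0.80, SE 0.58), and its log2 fold change was 1.64 without control 1 and 0.44 without control 2. The adjusted p of these 4 genes was 0.911 in edgeR.

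ANK2 (ENSG00000145362), on chromosome 4, 112818109 to 113383740, plus strand, is the longest of the 6, with 27 annotated transcripts from 24 start sites and 18224 bp of exons. It had 131, 107 and 116 counts in bile acid libraries and 300, 106 and 188 in control libraries. The levels were 4.67, 3.91 and 4.03 CPM in bile acid libraries against 10.8, 5.94 and 8.01 CPM in control libraries. The bile acid libraries were close together, and the controls spread 1.82-fold from lowest to highest, with control 2 lowest and still 1.27-fold above the highest bile acid library. The log2 fold change was −0.97 (SE 0.29), −1.15 without control 2 and −0.73 without control 1, with 589 tested genes below it.

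ANK1, the ankyrin of red cells, and ANK3, ankyrin-G of epithelial membranes, were low per length, as ANK2 was. ANK2 averaged 0.197 ± 0.0188 FPKM in bile acid and 0.393 ± 0.121 FPKM in control libraries, ANK3 0.151 ± 0.0492 FPKM in bile acid and 0.122 ± 0.0890 FPKM in control libraries, and ANK1 0.133 ± 0.0477 FPKM in bile acid and 0.0752 ± 0.0806 FPKM in control libraries (SD, n = 3), with ANK1 at 0 counts in control 2. ANK2 made up 36.0% to 48.2% of the ankyrin FPKM in bile acid libraries and 58.5% to 90.3% in control libraries, the highest share being that of control 2. Of 26 other ankyrin, spectrin, band 4.1, adducin and partner genes, 25 were tested and 0 passed in edgeR. Their median log2 fold change was 0.19, beside −0.01 over all genes tested, with 17 positive and 8 negative values. SPTBN1, the widespread beta spectrin, measured 219, 150 and 207 CPM in bile acid libraries against 226, 94.9 and 161 CPM in control libraries. The smallest p were those of SLC8A1, the sodium-calcium exchanger that ankyrin-B anchors in heart cells (log2 fold change 0.94, SE 0.59), NFASC, an adhesion protein that binds ankyrins (−0.24, SE 0.18), and ATP1B1, a subunit of the sodium pump (0.21, SE 0.17). SLC8A1 measured 7.56, 2.38 and 5.63 CPM in bile acid libraries against 4.24, 1.06 and 2.73 CPM in control libraries, with overlap. Its log2 fold change was 0.58 without control 2 and 1.44 without control 1.

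TM4SF1 had no expressed relative beside it. TM4SF4, TM4SF5, TM4SF18 and TM4SF20 had 0 counts in every library, and TM4SF19 reached 0.209 CPM at most, so TM4SF1 made up 97.9% to 100% of the family FPKM in bile acid libraries and 97.8% to 100% in control libraries. Of the 27 other members of its family and of the tetraspanins 20 were tested, 0 passed in edgeR, 9 were positive and 11 negative, and the median log2 fold change was −0.07. TSPAN5, a regulator of the protease ADAM10, had the smallest p, with 36.2, 36.4 and 42.2 CPM in bile acid libraries against 30.8, 28.8 and 27.8 CPM in control libraries, without overlap (log2 fold change 0.39, SE 0.17). TSPAN33 and TSPAN17 followed with log2 fold changes of −0.62 (SE 0.34) and −0.52 (SE 0.30), and without control 2 each of them stood at −0.11.

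Control library 2 departed from controls 1 and 3 by gene length, and the 6 genes followed that trend unequally. Genes of like exonic length, from 0.8 to 1.25 times that of the gene and with a mean of at least 5 CPM, give the comparison. In DDR2 control 2 lay at −1.07 on the log2 scale against the mean of controls 1 and 3, where 1746 genes of like length had a median of −0.63. In ANK2 it lay at −0.64, where 340 genes had a median of −0.87. In CUL4B it lay at 0.16, where 3224 genes had a median of −0.34, and in B4GALNT2 at 0.40, where 2415 genes had a median of −0.49. The value of B4GALNT2 rests on 25, 21 and 20 counts in controls 1 to 3. Its group means, 0.143 CPM in bile acid and 0.976 CPM in control libraries, lie under the 5 CPM asked of the compared genes. So does the control mean of TMEM156, 0.906 CPM. TM4SF1 at 0.20 lay beside the 0.17 of its 2744 genes, while TMEM156 at −1.59 went against the 0.52 of its 1690 genes, on 6 counts in control 2. The part of this trend in the fold changes was not tested. Over genes of like length the median log2 fold change between the groups ran from −0.16 for TMEM156 to 0.13 for ANK2. The 6 genes were chosen for their shift, so a gap between them and these medians follows from the choice.

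**Figure D3:**
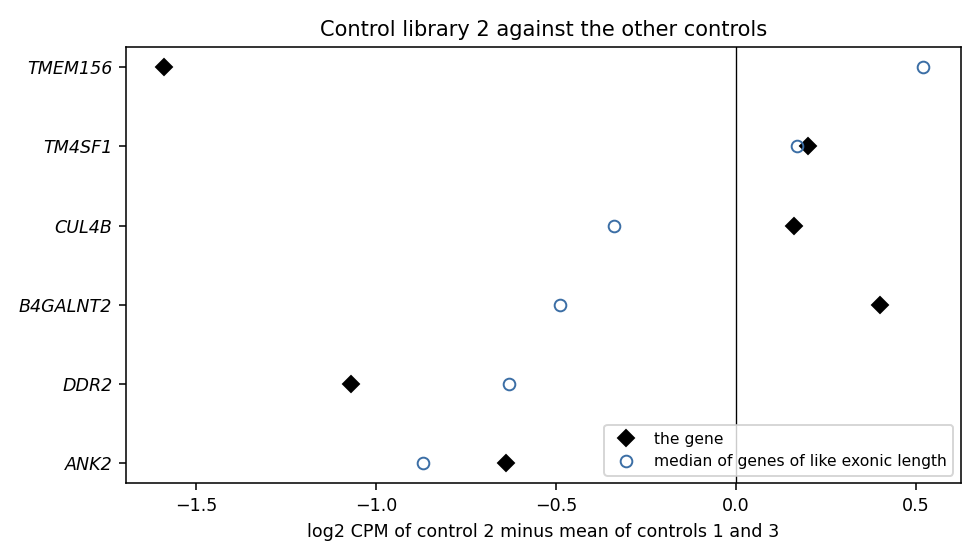
Log2 CPM of control library 2 minus the mean of controls 1 and 3 for each gene (diamonds), with the median of tested genes of like exonic length (circles). TMEM156 at −1.59 lies far below its circle at 0.52, and DDR2 at −1.07 lies below its circle at −0.63.

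The genes beside the 6 on their chromosomes were not chosen by their shift, so smaller fold changes in them follow from the choice of the 6. Within 500 kb of the start of TMEM156, 12 tested genes had log2 fold changes of −1.03 to 1.06 with a median of 0.21, and the nearest expressed genes were KLHL5 at 12.1 kb (0.56, SE 0.33) and FAM114A1 at 21 kb (0.12, SE 0.17). Around TM4SF1, 8 genes ran from −0.44 to 0.81. The nearest expressed genes there were WWTR1, which encodes the YAP partner TAZ, at 139 kb (0.65, SE 0.34) and HPS3 at 195 kb (0.81, SE 0.64). Control 2 was the lowest library in HPS3, WWTR1 and KLHL5, which raises these fold changes. HPS3 measured 29.9, 4.2 and 35.4 CPM in controls 1 to 3, WWTR1 49.6, 24.6 and 46.4 CPM, and KLHL5 48.1, 21.6 and 48.5 CPM. Beside CUL4B, LAMP2, a lysosomal membrane protein, measured 170, 175 and 184 CPM in bile acid libraries against 153, 115 and 162 CPM in control libraries (0.30, SE 0.19), and MCTS1 on the other side had −0.62 (SE 0.45), which was 0.14 without control 2. The 17 genes around B4GALNT2 ran from −0.56 to 0.45 with 4 positive values. HSD17B7, 3.3 kb past the end of DDR2, had 0.37 (SE 0.34), and UAP1 on its other side 0.35 (SE 0.18), opposite in sign to DDR2. LARP7 and CAMK2D, the expressed genes that flank ANK2, had −0.03 (SE 0.16) and 0.22 (SE 0.20). IGF2BP1 and ZNF652, which flank B4GALNT2, had 0.25 (SE 0.45) and −0.19 (SE 0.36), which turned to −0.11 and 0.31 without control 2. The adjusted p of these flanking genes lay between 0.911 and 0.975 in edgeR.

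**Figure D4:**
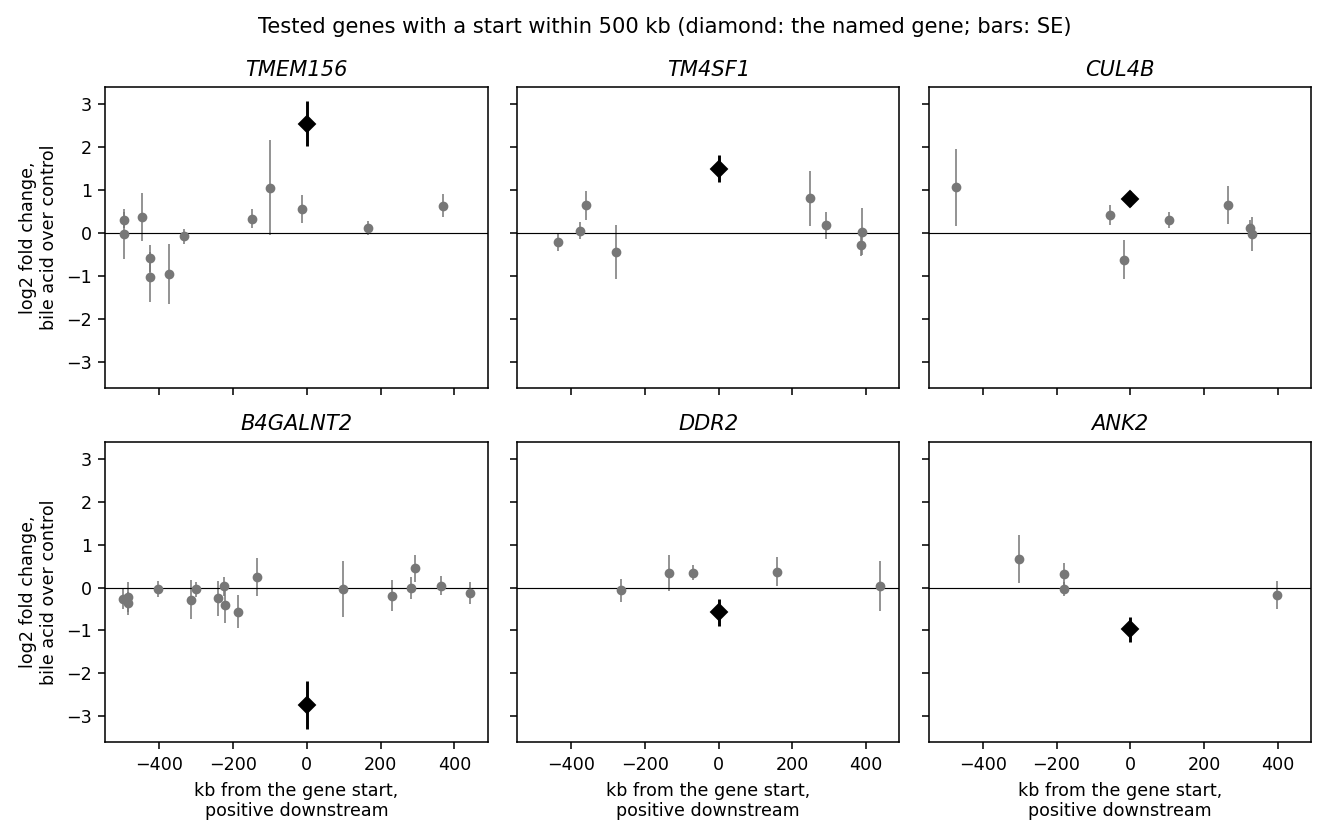
Log2 fold change of every tested gene whose start lies within 500 kb of that of the named gene (grey, bars SE), against the distance in kb, with the named gene as a diamond at 0. The neighbours lie between −1.03 and 1.07, and the diamonds, of genes chosen for their shift, between −2.73 and 2.55.

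The genes with the most similar profiles over the 6 libraries were sought by the root mean square difference of log2 CPM, each gene centred on its own mean. The direction of these genes follows from the search and is no finding. Closest to TM4SF1 were the noncoding FLJ22447 (0.14), DKK1, an inhibitor of WNT signalling (0.15), and DUSP1, a phosphatase of MAP kinases (0.17), where the median gene lay at 0.85. DKK1 measured 18.2, 11.3 and 18.2 CPM in bile acid libraries against 5.14, 6.61 and 5.37 CPM in control libraries, with the same dip in bile acid library 2. Among the 3 genes closest to CUL4B were IRF2BP2, a corepressor (0.10), and NREP (0.10), with the median gene at 0.54. Closest to TMEM156 were the noncoding LUCAT1 (0.12), HMGA2, an architectural chromatin protein (0.46), and PDCD1LG2, the PD-1 ligand PD-L2 (0.46), all at or under 2.03 CPM in every library, with the median gene at 1.44. LUCAT1 had 4, 0 and 6 counts in controls 1 to 3, and PDCD1LG2 had 0 in control 2. Their log2 CPM in control 2 was thus set by the prior count.

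Among the lower genes, ANK2 was closest to ESR1, the oestrogen receptor (0.14), its chromosomal neighbour CCDC170 (0.16) and GFRA1, a receptor of GDNF (0.19), with the median gene at 0.64. ESR1 lay at 0.256 to 0.382 CPM in bile acid and 0.504 to 0.899 CPM in control libraries. GFRA1 measured 11.2, 9.5 and 8.97 CPM in bile acid libraries against 20.4, 9.8 and 16.0 CPM in control libraries. Closest to DDR2 were SLC34A2, a phosphate transporter (0.10), FSD1L (0.10) and TMEM63C (0.11), all lower in control 2 than in controls 1 and 3, as DDR2 was. Closest to B4GALNT2 were PRSS51 (0.29), TTLL2 (0.32) and RHOXF1-AS1 (0.35), each under 1.3 CPM in every library. Among the 6 themselves, the smallest differences were between DDR2 and ANK2 (0.30) and between TM4SF1 and CUL4B (0.40). TMEM156 differed from TM4SF1 by 0.90. CUL4B lay 0.41 from a flat profile at its own mean, so the 0.40 shows no particular likeness to TM4SF1. The measure grows with the size of a shift. Because the 6 genes were chosen by direction, likeness within a direction restates the choice.

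The whole reads recovered from the deposited normalized counts were close to the count table. TMEM156 had 213, 109 and 161 reads in bile acid libraries and 26, 8 and 35 in control libraries there, and B4GALNT2 3, 5 and 4 against 25, 21 and 23. The authors' deposited table gives log2 fold changes of 2.58 for TMEM156, 1.48 for TM4SF1, 0.82 for CUL4B, −2.81 for B4GALNT2, −0.56 for DDR2 and −0.91 for ANK2. The sign of each gene was kept under each alternative that gave a value. All alternatives reused the libraries in which the genes were chosen by direction, so a kept sign is no independent support. The plot of alternatives shows the size to depend mainly on the library left out and on the pseudocount.

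**Figure D5:**
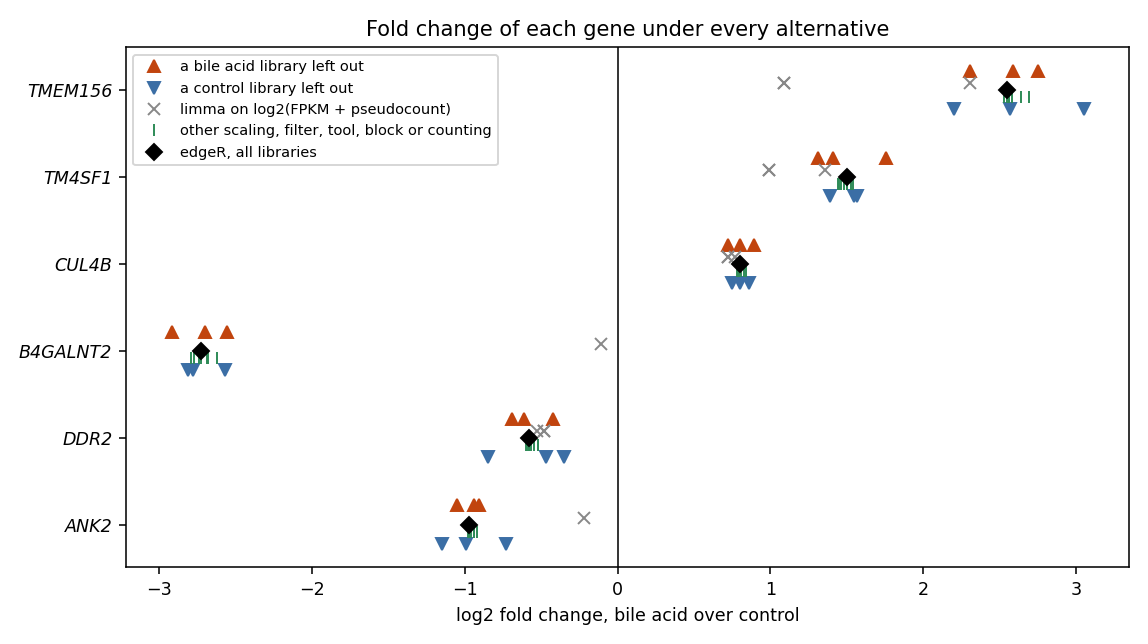
Log2 fold change, bile acid over control, of each gene with all libraries (diamonds), with 1 library left out (triangles) and under other scalings, filters, tools, countings and FPKM-based fits. All points of TMEM156, TM4SF1 and CUL4B lie above 0 and all of B4GALNT2, DDR2 and ANK2 below it, and the log2(FPKM + 1) values of TMEM156 and B4GALNT2, 1.09 and −0.11, lie nearest to 0 of their points. The genes were chosen by direction in these same libraries.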

How the data were processed

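Paired-end reads of 150 bp were sequenced from 3 bile acid and 3 control libraries, per the labels' protocols. The submitters' processing notes list HISAT2 2.0.5, featureCounts, DESeq2 and the GRCh38 build, with no step attached. Strand handling in counting: not given in the sources used here. The authors deposited whole-number counts per gene, FPKM (per kilobase of exon and library size) and normalized counts, a signal that equals whole reads divided by 1 factor per library (100% of values whole within 0.001). The authors' own comparison holds, per the file headers, log2 fold changes with standard errors and a mean signal.

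With edgeR 4.0.16 under R 4.3.3, the deposited counts of all genes were scaled by TMM, filtered with filterByExpr (minimum count 10) and given a quasi-likelihood test with no covariate, at a Benjamini-Hochberg adjusted p of 0.05. Standard errors are the log2 fold change over the root of F. Profiles used log2 CPM (prior count 2). The floor of 3 counts covers counting error only. P-values measure the spread between these libraries, which may be technical. The 6 genes, the gene lists and the search rules were chosen with earlier results of these data known. Named are the 6 genes, fixed relatives, up to 3 genes per list with the smallest p, the nearest genes with at least 1 CPM, and the 3 most similar profiles per gene, pseudogenes and clone names left out; 1 of these profiles is not reported here. TM4SF5, TM4SF19 and TM4SF20 were named after their values were seen. Gene structure is that of GENCODE release 29, whose exonic lengths equal the deposited ones for the 6 genes, and promoters are those of RefSeq. Alternatives were DESeq2 1.42.0, limma-voom (limma 3.58.1), scaling by RLE or by library size, dropping the filter or asking for 1 CPM in 3 libraries, a replicate block, each library left out, limma on log2(FPKM + 1) or log2(FPKM + 0.1), and, added after seeing the data, edgeR on the recovered reads. The fits were tested on simulated data in which no library departed by gene length, unlike control 2 here.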

Additional observations from a re-analysis of the deposited data

How the results depend on the processing

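Over all genes edgeR called 0 genes under every setting tried except without control 2, where it called 1, the metallothionein gene MT2A (log2 fold change 2.12, adjusted p = 0.0436 in edgeR, against 0.911 or above with all libraries). DESeq2 called 19 and limma-voom 0. On the recovered reads it called 0. The count of list members called was 0 for each of the 6 lists under every setting. Genes whose bile acid libraries all lay above the controls numbered 939 with all libraries, 1560 with no filter on low counts and 1301 to 2493 with 1 library left out, and those below numbered 868 with all libraries and 1160 to 2326 with 1 left out. Fewer libraries make such a separation easier by construction.

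The fold changes of the 6 genes kept their sign under each setting that gave a value, which follows largely from their choice by direction in these same libraries. With limma on log2(FPKM + 1) that of TMEM156 was 1.09, of TM4SF1 0.99, of B4GALNT2 −0.11 and of ANK2 −0.22, a scale that understates the differences of low genes. With a minimum mean of 0.5 FPKM, B4GALNT2 and ANK2 gave no value, and B4GALNT2 gave none with 1 CPM in 3 libraries. Same-numbered libraries of the groups deviated together with correlations across genes of 0.307, 0.382 and 0.0979 for numbers 1 to 3, which does not reach 0.1 in every pair, and control 3 correlated best with bile acid library 1 (0.189). With the replicate block edgeR called 0 genes, 1109 had an unadjusted p under 0.05 against 588 without it, and the log2 fold change of TMEM156 was 2.69. B4GALNT2 rests on 12 counts in the bile acid libraries and TMEM156 on 66 in the controls, which limits how well their fold changes are known.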
